A study of Mus musculus with 8 samples.

Results

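The genes described here were the CSF1 axis and the macrophage lineage genes of the cultured embryonic kidney. They were taken by name from the deposited table of gene counts, as *Csf1*, *Il34*, *Csf1r*, *Spi1*, *Adgre1*, *Ptprc*, *Aif1*, *Cd68*, *Laptm5* and *Mpeg1*, which are 10 of 30890 genes. All 10 were present, and 9 had enough reads to be tested among 16723 genes. *Aif1* did not, because it reached 10 counts in fewer samples than a group holds.

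The kidneys came from C57BL/6 mouse embryos at stage E12.5 and were kept for 72 h on a filter floating on culture medium. In 4 samples the medium held CHIR99021 at 5 µM, and in the other 4 it held DMSO, the vehicle, at 0.1%. CHIR99021 inhibits the kinase GSK3, which normally marks β-catenin for destruction, and can thereby switch on Wnt/β-catenin signaling. In which cells of the explant it did so was not measured. By the study's methods the left kidney of an embryo received DMSO and the right one CHIR99021, and kidneys without the usual Wnt target responses were left out, so the CHIR99021 group holds responding kidneys by selection. An explant has no circulation, so it holds the blood-derived cells that were in the kidney when it was taken out. RNA-seq was run on whole kidneys, and in such bulk samples fewer cells of a type and less RNA per cell cannot be told apart.

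Macrophages reach the embryonic kidney from the yolk sac and fetal liver and then live between the growing tubules. They depend on the receptor tyrosine kinase CSF1R, which is bound by either of a pair of ligands made by surrounding cells, the cytokines CSF1 and IL-34. The transcription factor PU.1, encoded by *Spi1*, is needed for the myeloid lineage and acts at the regulatory regions of *Csf1r* and of many macrophage genes. The comparison of CHIR99021 with DMSO asked whether the RNAs of the ligands moved with those of the receptor and the lineage genes. Which cells made each RNA was not measured.

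The receptor, *Spi1* and the marker genes that could be tested were lower with CHIR99021, as was the ligand *Il34*. The ligand *Csf1* did not pass the test, at 48.8 ± 10.6 CPM (counts scaled to library size) with DMSO and 55.3 ± 12.9 with CHIR99021 (SD, n = 4 each). *Csf1r*, *Spi1*, *Adgre1*, *Ptprc*, *Laptm5* and *Mpeg1* fell to between 8.45 and 16.7% of their DMSO means, a range that also held the untested *Aif1*. *Il34* fell to 41.1% and *Cd68* to 71.3%. Of the 9 tested genes, 8 were lower with CHIR99021 and 0 were higher at an adjusted p under 0.05 (edgeR quasi-likelihood test, Benjamini-Hochberg), where 25.0% of all tested genes were lower and 23.7% were higher. At an unadjusted p under 0.05 the counts were also 8 and 0, as they were by DESeq2 and by limma-voom after adjustment. The median log2 fold change of the 9 was -2.60, against -0.00293 over all tested genes. In 7 of the 10 genes no CHIR99021 sample reached the lowest DMSO sample, and 23.4% of all tested genes were separated in that direction. The study itself reported *Csf1r* as lowered in these same samples, and the 10 genes were chosen with earlier results known. These counts are therefore no independent support.

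The promoters of 4 of the genes are shown because they belong to the ligand that did not pass the test (*Csf1*), to the marker that fell least (*Cd68*) and to 2 markers that fell strongly (*Laptm5*, *Mpeg1*). Each window is from RefSeq on GRCm38.p6 and runs 5′ to 3′ on the strand of the gene, from 250 bases before the start of transcription to 50 bases after it. The *Csf1* window lies at chr3:107760420-107760719 (minus strand), the *Cd68* window at chr11:69666121-69666420 (minus strand), the *Laptm5* window at chr4:130913066-130913365 (plus strand) and the *Mpeg1* window at chr19:12460520-12460819 (plus strand). Capitals mark GAGGAA or its complement TTCCTC, a core that PU.1 binds, and CTTTGA or its complement TCAAAG, a core that the TCF/LEF partners of β-catenin bind.
Csf1: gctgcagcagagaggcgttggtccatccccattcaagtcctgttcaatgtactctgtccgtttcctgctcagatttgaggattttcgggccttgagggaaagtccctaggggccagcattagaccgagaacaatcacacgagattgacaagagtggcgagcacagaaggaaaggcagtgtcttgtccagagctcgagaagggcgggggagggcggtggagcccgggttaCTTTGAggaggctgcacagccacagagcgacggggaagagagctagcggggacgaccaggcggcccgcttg
Cd68: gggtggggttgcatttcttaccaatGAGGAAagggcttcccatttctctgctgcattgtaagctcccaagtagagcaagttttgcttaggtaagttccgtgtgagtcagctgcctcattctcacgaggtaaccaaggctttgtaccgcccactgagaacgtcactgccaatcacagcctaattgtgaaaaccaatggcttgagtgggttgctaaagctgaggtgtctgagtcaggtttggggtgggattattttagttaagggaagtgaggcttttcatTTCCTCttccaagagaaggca
Laptm5: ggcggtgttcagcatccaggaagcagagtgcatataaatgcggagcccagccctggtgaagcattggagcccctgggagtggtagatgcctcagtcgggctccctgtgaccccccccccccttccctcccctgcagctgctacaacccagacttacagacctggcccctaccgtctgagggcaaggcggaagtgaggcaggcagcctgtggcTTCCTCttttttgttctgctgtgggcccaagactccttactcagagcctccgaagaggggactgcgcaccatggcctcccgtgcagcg
Mpeg1: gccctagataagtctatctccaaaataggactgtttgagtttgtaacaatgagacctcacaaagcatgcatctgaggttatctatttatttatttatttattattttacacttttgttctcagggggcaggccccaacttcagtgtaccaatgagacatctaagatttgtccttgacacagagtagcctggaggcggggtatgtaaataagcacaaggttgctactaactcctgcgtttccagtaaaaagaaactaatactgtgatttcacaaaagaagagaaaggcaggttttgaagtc

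Windows were used for 6 of the 10 genes, 7 windows in all since *Ptprc* has a pair. *Csf1r* and *Il34* were left out of the search, and no window was found for *Spi1* and *Adgre1*. The TCF/LEF core stood in the *Csf1* window, at -21 from the start, and in the upstream *Ptprc* window, at -88. The PU.1 core stood at -225 and +30 in *Cd68*, at -38 in *Laptm5*, at -7 in *Aif1* and at -158 in the upstream *Ptprc* window. Neither core was in the *Mpeg1* window or in the downstream *Ptprc* window. Such short cores are common: of 32851 mouse promoter windows of this length, 28.3% held the PU.1 core and 16.0% the TCF/LEF core on either strand, and the matches found here did not overlap each other. A match is a description of the letters, and binding was not measured.

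**Figure D1:**
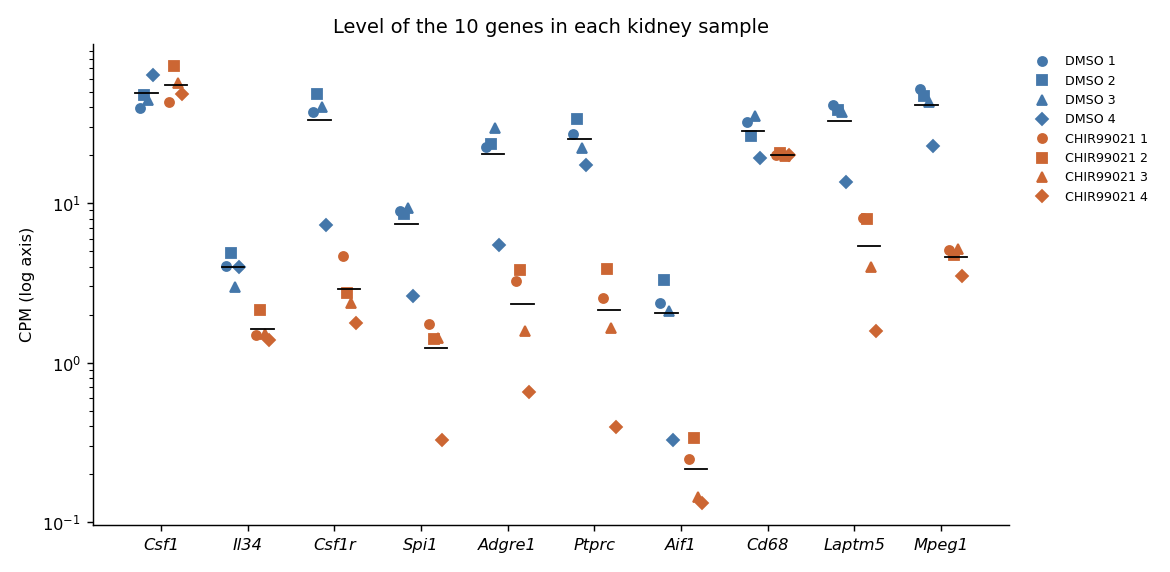
Level of each of the 10 genes in each sample, in CPM on a log axis, with DMSO and CHIR99021 samples as points and group means as short lines. The *Csf1* groups overlap, while for *Csf1r* the CHIR99021 samples lie between 1.77 and 4.68 CPM and the lowest DMSO sample, replicate 4, at 7.33 CPM.

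Among the ligands, CSF1 is the broadly made growth factor for macrophages, secreted or held at the cell surface. *Csf1* (chr3:107741048-107760469, minus strand, GRCm38) stood at 39.5, 47.3, 44.3 and 64.0 CPM in DMSO replicates 1 to 4 and at 42.9, 72.6, 57.0 and 48.7 CPM in CHIR99021 replicates 1 to 4. The groups overlapped almost fully, with the highest value in CHIR99021 replicate 2 and the lowest in DMSO replicate 1. The CHIR99021 kidney was above the DMSO kidney of the same number in 3 of 4 pairs. The log2 fold change was 0.18 (SE 0.20, 95% confidence interval -0.29 to 0.65, adjusted p = 0.497 by edgeR), so a moderate rise or a small fall would both lie within the interval.

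IL-34 is the other CSF1R ligand, best known for keeping up the resident macrophages of skin and brain. *Il34* (chr8:110741829-110805924, minus strand) stood at 4.06, 4.85, 2.99 and 3.99 CPM with DMSO and at 1.50, 2.14, 1.51 and 1.38 CPM with CHIR99021. All CHIR99021 samples were below all DMSO samples, and DMSO replicate 4 lay between DMSO replicates 1 and 3. The log2 fold change was -1.28 (SE 0.22, adjusted p = 0.000351 by edgeR), a 2.43-fold fall. The gene was thinly covered, with 51 to 85 counts per DMSO sample and 21 to 32 per CHIR99021 sample.

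Between genes, levels can be compared only per length. On the authors' FPKM scale, *Csf1* stood at 9.67 ± 2.11 with DMSO and 9.97 ± 2.28 with CHIR99021, and *Il34* at 2.12 ± 0.395 and 0.793 ± 0.163 (SD, n = 4). *Csf1* was therefore the more abundant ligand RNA in both groups. *Csf1r* fell from 7.11 ± 3.82 to 0.563 ± 0.243 FPKM. The FPKM of *Csf1* divided by that of *Csf1r* was 0.977, 0.907, 1.03 and 8.08 in DMSO replicates 1 to 4, and 8.49, 24.5, 22.3 and 25.4 in CHIR99021 replicates 1 to 4. Ligand and receptor RNA were thus about level in DMSO replicates 1 to 3, while DMSO replicate 4 came close to the lowest CHIR99021 sample. For *Il34* over *Csf1r* the ratios were 0.270, 0.251, 0.187 and 1.36 with DMSO and 0.798, 1.95, 1.59 and 1.94 with CHIR99021, and here DMSO replicate 4 was above CHIR99021 replicate 1.

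*Csf1r* (chr18:61105572-61132149, plus strand), the receptor through which both ligands act and a defining gene of the lineage, stood at 37.4, 48.2, 39.9 and 7.33 CPM with DMSO. With CHIR99021 it stood at 4.68, 2.74, 2.37 and 1.77 CPM. The groups did not overlap, but DMSO replicate 4 lay closer to the CHIR99021 samples than to the other DMSO samples, at 17.5% of the mean of DMSO replicates 1 to 3. The log2 fold change was -3.51 (SE 0.67, 95% confidence interval -5.12 to -1.90, adjusted p = 0.00474 by edgeR), an 11.4-fold fall. Without DMSO replicate 4 it was -3.85 with an adjusted p of 3.58e-06 by edgeR. Of the 5327 exonic bases of *Csf1r*, 873 (16.4%) overlap exons of *Hmgxb3* on the opposite strand, and since the sources used here do not say whether reads were counted by strand, some reads of that neighbour may be in the *Csf1r* counts.

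*Spi1* (chr2:91082390-91115756, plus strand), the gene of PU.1, stood at 8.98, 8.56, 9.26 and 2.62 CPM with DMSO and at 1.75, 1.41, 1.44 and 0.329 CPM with CHIR99021. DMSO replicates 1 to 3 lay close together, replicate 4 lay far below them, and all CHIR99021 samples were lower still. The log2 fold change was -2.58 (SE 0.50, adjusted p = 0.00261 by edgeR), a 5.97-fold fall. In CHIR99021 replicate 4 the level rested on 5 counts.

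Of the surface markers, *Adgre1* encodes F4/80, the classic antigen of mouse tissue macrophages, and *Ptprc* encodes CD45, a phosphatase carried by nearly all white blood cells. *Adgre1* (chr17:57358686-57483529, plus strand) stood at 22.6, 23.6, 29.5 and 5.43 CPM with DMSO and at 3.25, 3.82, 1.58 and 0.657 CPM with CHIR99021. *Ptprc* (chr1:138062861-138175708, minus strand) stood at 27.2, 33.7, 22.1 and 17.4 CPM with DMSO and at 2.56, 3.88, 1.65 and 0.394 CPM with CHIR99021. Both were separated between the groups, and for both the lowest sample of each group was replicate 4. DMSO replicate 4 was at 21.5% of the mean of the other DMSO samples for *Adgre1* and at 62.9% for *Ptprc*. This did not follow how broadly a gene is used. The same sample was at 34.4% for *Laptm5* of white blood cells and at 48.0% for *Mpeg1* of macrophages. The log2 fold change was -3.12 for *Adgre1* (SE 0.67, adjusted p = 0.00790) and -3.56 for *Ptprc* (SE 0.48, adjusted p = 0.000621), both by edgeR, or 8.68-fold and 11.8-fold falls.

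*Laptm5* and *Mpeg1* encode proteins of the endolysosome, a membrane protein of white blood cells and the pore-forming perforin-2 of macrophages. *Laptm5* (chr4:130913125-130936141, plus strand) stood at 41.5, 38.7, 37.3 and 13.5 CPM with DMSO and at 8.11, 7.90, 3.95 and 1.58 CPM with CHIR99021. *Mpeg1* (chr19:12460779-12465284, plus strand) stood at 52.0, 47.0, 43.3 and 22.8 CPM with DMSO and at 5.05, 4.75, 5.17 and 3.48 CPM with CHIR99021. The groups were separated for both, with the CHIR99021 samples of *Mpeg1* close together and its lowest DMSO sample far above them. *Mpeg1* fell by 3.16 on the log2 scale (SE 0.29, adjusted p = 4.02e-05 by edgeR), an 8.96-fold fall. *Laptm5* fell by 2.60 on the log2 scale (SE 0.56, adjusted p = 0.00779 by edgeR), with CHIR99021 replicates 3 and 4 below replicates 1 and 2.

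*Aif1* (chr17:35170991-35176068, minus strand), which encodes the actin-bundling macrophage protein IBA1, was barely covered. It had 44, 58, 36 and 5 counts in DMSO replicates 1 to 4 and 4, 5, 2 and 2 counts in CHIR99021 replicates 1 to 4. DMSO replicate 4, at 0.327 CPM, was below CHIR99021 replicate 2, at 0.335 CPM, so the groups overlapped. *Aif1* was outside the test described above. When all genes of the table were fitted, its log2 fold change was -3.18 (SE 0.65, adjusted p = 0.00265 by edgeR).

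*Cd68* (chr11:69664213-69666153, minus strand) encodes a lysosomal glycoprotein that is abundant in macrophages and is also found in other cells with many lysosomes. It stood at 32.2, 26.4, 35.1 and 19.1 CPM with DMSO and at 20.2, 20.6, 19.7 and 19.9 CPM with CHIR99021. The CHIR99021 samples lay within 1 CPM of each other, and DMSO replicate 4 was below all of them, so that the groups overlapped. The fold change was small, -0.49 on the log2 scale (SE 0.16, 95% confidence interval -0.85 to -0.13, adjusted p = 0.0278 by edgeR). In pair 4 the CHIR99021 kidney was at 104% of the DMSO kidney, and in the other pairs at 56.0 to 78.2%. The call was lost when DMSO replicate 1, DMSO replicate 3 or any of the CHIR99021 replicates was left out (adjusted p up to 0.0749 by edgeR), and without DMSO replicate 4 it was stronger, at -0.64 (adjusted p = 0.000193 by edgeR).

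**Figure D2:**
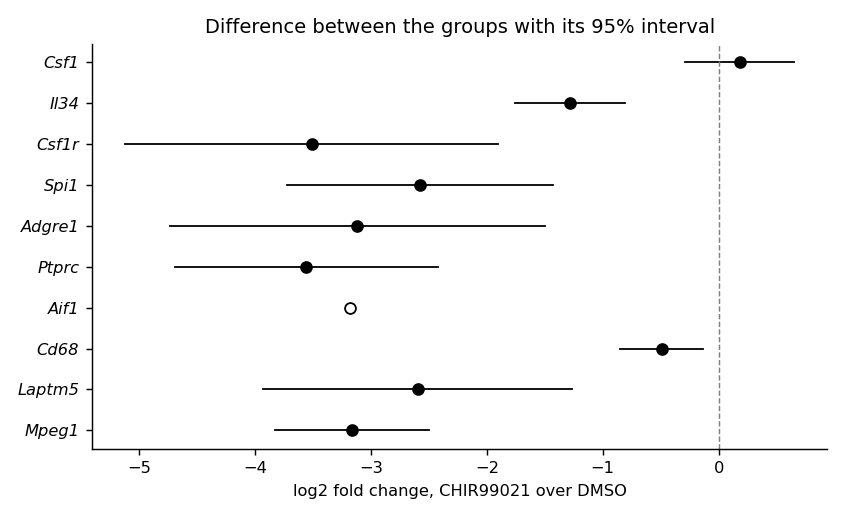
Log2 fold change of CHIR99021 over DMSO for the 9 tested genes (edgeR, filled points), with 95% confidence intervals as bars and a line at 0, and for *Aif1* from the fit to all genes of the table (open point, no interval drawn). The interval of *Csf1* spans 0 (-0.29 to 0.65), that of *Cd68* ends at -0.13, and those of the receptor, factor and other markers lie below -1.

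The DMSO group was uneven. Of the 8 receptor, factor and marker genes, 8 had their lowest DMSO value in replicate 4, and 7 had their lowest CHIR99021 value in replicate 4, with *Cd68* the exception. For the 7 of them other than *Cd68*, DMSO replicate 4 was at 12.6 to 62.9% of the mean of DMSO replicates 1 to 3. The ligands did not share this: in DMSO replicate 4 *Il34* was at 101% and *Csf1* at 146% of that mean. Without that sample the log2 fold changes became -2.86 for *Spi1*, -3.43 for *Adgre1*, -3.70 for *Ptprc*, -2.86 for *Laptm5*, -3.37 for *Mpeg1* and 0.33 for *Csf1* (adjusted p = 0.156 by edgeR for *Csf1*), and no call changed.

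**Figure D3:**
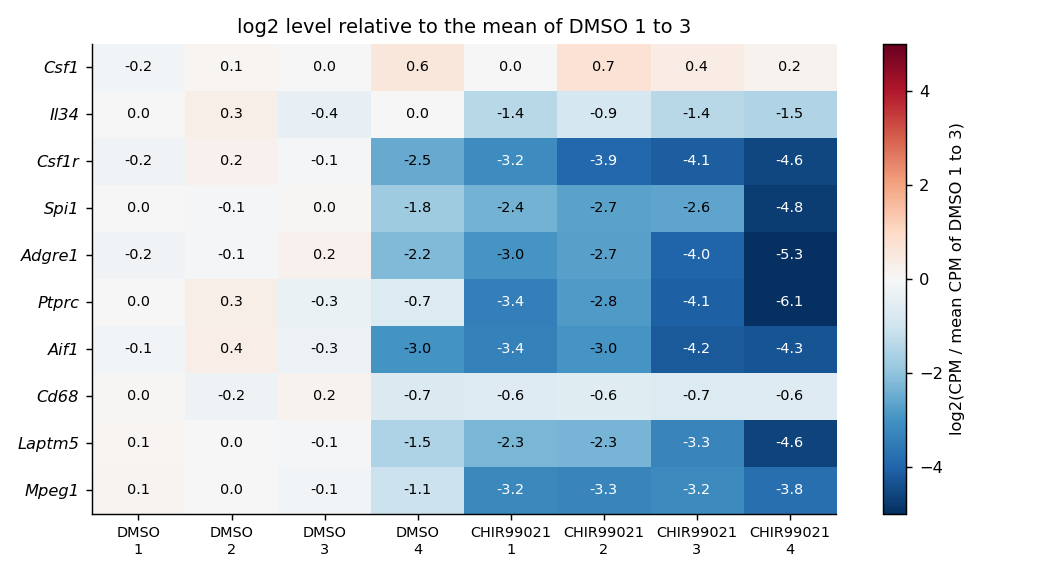
Level of each gene in each sample as log2 of its CPM over the mean of DMSO replicates 1 to 3, with color running from lower (blue) to higher (red) and saturating at 5 on either side. DMSO replicate 4 stands at -2.51 for *Csf1r* and -1.77 for *Spi1* but at 0.01 for *Il34* and 0.55 for *Csf1*.

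To set each gene against the receptor within a sample, the log2 CPM of *Csf1r* (prior count of 2) was subtracted from that of each other gene. The *Csf1* to *Csf1r* difference rose from 0.83 ± 1.52 with DMSO to 4.26 ± 0.73 with CHIR99021 (SD, n = 4), and the groups did not overlap. The exact two-sided permutation p was 0.0286, the smallest that 4 against 4 samples allow, and 0.0857 after Benjamini-Hochberg adjustment over the 9 ratios, so no ratio passed the threshold. A ratio could pass after adjustment only if most of the 9 stood at that smallest p together. The adjusted values therefore cannot decide on a single ratio. For *Cd68* the ratio rose by 2.81 and for *Aif1* by 0.87, each with the same exact p of 0.0286 and adjusted p of 0.0857. The *Aif1* value rests on 2 to 5 counts per CHIR99021 sample, and its exact p was 0.114 with a prior count of 0.5. *Il34* gained 2.03 on *Csf1r*, from -2.75 ± 1.28 to -0.71 ± 0.58, with an exact permutation p of 0.0571 (adjusted p = 0.129), as DMSO replicate 4 lay inside the CHIR99021 range. *Spi1* differed by 0.76 (exact permutation p = 0.0857), *Laptm5* by 0.55 (0.286), *Adgre1* by 0.18 (0.743), *Mpeg1* by 0.18 (0.714) and *Ptprc* by -0.53 (0.429). For these 5 genes the groups overlapped in their ratio to the receptor, and the direction for *Adgre1*, *Mpeg1* and *Ptprc* turned under at least 1 alternative.

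**Figure D4:**
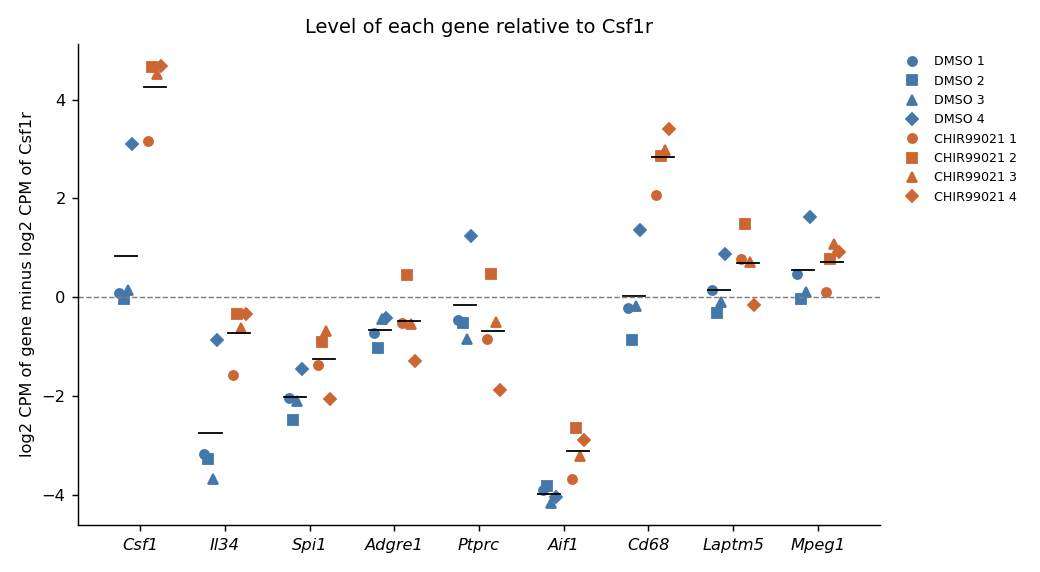
Log2 ratio of each other gene to *Csf1r* in each sample, from log2 CPM with a prior count of 2, with points for samples and short lines for group means. The CHIR99021 samples of *Csf1* (3.16 to 4.68) lie above all DMSO samples (-0.03 to 3.10), while the groups overlap for *Adgre1*, *Mpeg1*, *Laptm5* and *Ptprc*.

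After the group means were removed, the log2 CPM of *Csf1r* over the 8 samples went with that of *Aif1* (Pearson r = 0.940), *Mpeg1* (0.915), *Adgre1* (0.866), *Spi1* (0.843), *Laptm5* (0.802), *Cd68* (0.777) and *Ptprc* (0.505). With *Il34* the r was 0.0513 and with *Csf1* it was -0.638. These values are descriptions over 8 samples, among which DMSO replicate 4 lay far from the others of its group in *Csf1r*. Among 15565 genes with a mean of at least 1 CPM, the 5 whose deviations were most like those of *Csf1r* over the 8 samples were *Ttc38* (r = 0.987), *Nckap1l* (0.983), *Stx8* (0.983), *Tlr2* (0.978) and *Sike1* (0.973). Of these, *Nckap1l* fell by 2.28 on the log2 scale (adjusted p = 0.00265 by edgeR) and *Ttc38* by 0.36 (adjusted p = 0.00523 by edgeR), while *Stx8* rose by 0.36 (adjusted p = 0.00323 by edgeR). The 5 most like *Csf1* were *Churc1* (r = 0.981), *Esrp2*, *Il1r1* and *Cald1* (0.961 each) and *Fzd1* (0.959). Both sets of 5 were picked as the highest among 15565 genes, with 6 degrees of freedom left after the group means. Such high r values can arise from the picking alone.

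Further genes of the pathway were read in the same fit, from lists made by role. Of 67 tested genes in these lists, 28 were lower, 14 were higher and 25 did not pass the test, with a median log2 fold change of -0.25. Over all tested genes 25.0% were lower and 23.7% higher, so the higher genes were no larger a share of the lists than of the whole table. The genes of ligand handling come first. *Adam17*, a protease that can shed cell-surface CSF1, went from 99.5 ± 4.31 to 111 ± 6.79 CPM (adjusted p = 0.0296 by edgeR), a call that 9 of 18 alternatives did not keep. *Sdc1*, a syndecan that binds IL-34, rose from 73.1 ± 10.4 to 121 ± 4.54 CPM (log2 fold change 0.73, adjusted p = 4.23e-05 by edgeR). *Trem2*, a lipid receptor of macrophages reported to bind IL-34 as well, fell from 4.15 ± 1.45 to 1.28 ± 0.376 CPM (-1.69, adjusted p = 0.000456 by edgeR). Of the 5 genes of this group, 2 were higher, 1 was lower and 2 did not pass the test.

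Of 29 genes of signaling below CSF1R, 15 were lower, 3 were higher and 11 did not pass the test (median -0.25). Over all tested genes 25.0% were lower and 23.7% were higher. *Pik3ap1*, an adaptor for PI3-kinase in white blood cells, fell from 8.70 ± 2.80 to 1.18 ± 0.247 CPM (log2 fold change -2.88, adjusted p = 2.91e-06 by edgeR). *Tyrobp*, the DAP12 adaptor of myeloid receptors, was named after its values were seen and fell from 5.14 ± 2.17 to 0.838 ± 0.393 CPM (-2.62, adjusted p = 0.000679 by edgeR). Against that direction, *Syk*, a kinase recruited by DAP12, rose from 24.0 ± 4.19 to 146 ± 22.7 CPM (2.60, adjusted p = 1.47e-06 by edgeR), and every CHIR99021 sample was above every DMSO sample. *Pik3r1*, a regulatory subunit of PI3-kinase, rose from between 115 and 125 CPM with DMSO to between 235 and 264 CPM with CHIR99021 (1.05, adjusted p = 5.06e-09 by edgeR), and *Stat3* rose by 0.31 on the log2 scale (adjusted p = 0.000608 by edgeR), a call lost in 2 of 18 alternatives. These 3 genes are made in many cell types besides macrophages.

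Of 22 tested myeloid transcription factors, 6 were lower, 6 were higher and 10 did not pass the test (median -0.17), shares near the 25.0% and 23.7% of all tested genes. *Runx1*, a factor of blood formation that acts upstream of *Spi1* in that lineage, rose from 20.8 ± 2.93 to 261 ± 18.9 CPM (log2 fold change 3.65, adjusted p = 2.2e-10 by edgeR) while *Spi1* fell. *Mitf*, a factor of osteoclasts, mast cells and pigment cells, rose by 0.83 (adjusted p = 4.99e-07 by edgeR), and *Ets2*, a target of growth factor signaling, by 0.65 (adjusted p = 9.12e-07 by edgeR). On the lower side, *Irf8*, a partner of PU.1, fell from 20.2 ± 3.62 to 6.26 ± 1.05 CPM and *Ikzf1*, a factor of white blood cells, from 3.68 ± 1.55 to 0.416 ± 0.0811 CPM (adjusted p = 2.24e-06 and 1.58e-05 by edgeR). Both were named after their values were seen.

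Of 11 tested genes for other blood cell cytokines and their receptors, 6 were lower, 3 were higher and 2 did not pass the test (median -0.80). With 25.0% of all tested genes lower and 23.7% higher, the share of higher genes was near that of the whole table. The level of *Flt3l*, the ligand for FLT3 of early blood cells, fell to 0.615 ± 0.153 CPM from 2.49 ± 0.123 CPM (adjusted p = 2.29e-05 by edgeR). *Csf3r*, the receptor for the granulocyte factor G-CSF, fell from 1.57 ± 0.491 to 0.130 ± 0.107 CPM (-3.49, adjusted p = 7.39e-05 by edgeR). *Il3ra*, a subunit of the IL-3 receptor, rose by 0.92, *Kit*, the stem cell factor receptor, by 0.71 and *Kitl*, its ligand, by 0.34 on the log2 scale (adjusted p = 7.88e-05, 0.00175 and 0.00711 by edgeR). The rise of *Kitl* did not pass in either of the fits to FPKM.

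**Figure D5:**
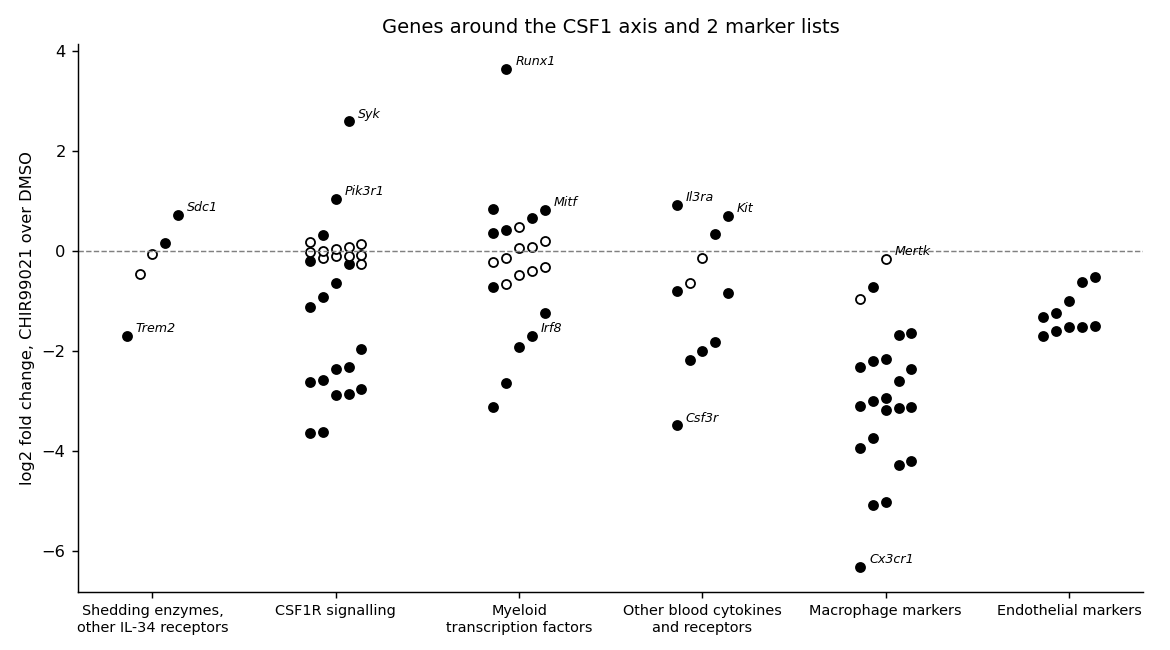
Log2 fold change of each tested gene (edgeR) in the 4 pathway lists and in the macrophage and endothelial marker lists, with filled points at an adjusted p under 0.05 and open points for the rest. The pathway lists hold 28 lower, 14 higher and 25 not called genes, with *Runx1* (3.65) and *Syk* (2.60) at the upper end.

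Libraries held 14599082 to 17751992 counts each, and depth did not separate the groups. Other library measures did. Genes with a count numbered 24243 to 24912 with DMSO and 23646 to 23938 with CHIR99021. The TMM scaling factors were 1.043 to 1.057 with DMSO and 0.9475 to 0.9627 with CHIR99021. What lies behind these differences was not tested. Markers of other cells moved beside the lowered genes. Of 23 tested macrophage markers outside the 10 genes, 21 fell and 0 rose (median -3.00), where 25.0% of all tested genes were lower and 23.7% higher. Many of these markers, *Lyz2* among them, are genes that the study itself reported as lowered in these same samples. The count is therefore no independent support. *Lyz2* fell by 4.20 and *Mrc1* by 2.37 on the log2 scale, and the *Mrc1* call was lost in 8 of 18 alternatives. The summed level of the macrophage markers was 729, 695, 821 and 236 CPM in DMSO replicates 1 to 4 and 50.7 to 141 CPM with CHIR99021, and 1 of the 24 listed, *Timd4* (named after its values were seen), had no count in any CHIR99021 sample. Of 10 endothelial markers 10 fell (*Cdh5* by 1.60 and *Pecam1* by 1.50), with sums of 483 to 662 against 189 to 260 CPM. All 6 cap mesenchyme markers fell (*Six2* by 5.33, *Eya1* by 3.88), as did 4 of 7 ureteric bud markers (*Calb1* by 3.34), while *Krt8* at -0.36 passed only in some alternatives, among them the fit with the replicate block. Of 7 stromal markers 3 rose, with *Col1a1* by 1.34 and *Col3a1* by 0.64, and 2 fell. Erythroid (*Hbb-bs* -0.23, *Hba-a1* -0.58) and mast cell and megakaryocyte markers (*Pf4* -0.35, *Itga2b* -0.37) had 0 of 5 tested genes called each by edgeR, and 0 at an unadjusted p under 0.05, while DESeq2 called 1 erythroid gene. Lymphoid markers summed to 6.22 to 10.2 against 2.37 to 3.55 CPM (*Cd79b* fell by 1.23, and *Il2rb* by 0.98 with its call lost in 5 of 18 alternatives), and neutrophil and monocyte markers to 3.95 to 22.2 against 2.81 to 3.59 CPM, highest in DMSO replicate 4, with *Prtn3* at -0.72 (adjusted p = 0.0514 by edgeR) and *S100a9* up to 6.22 CPM. Plasma protein genes of the liver, such as *Alb* and *Afp*, summed to 1269 and 901 CPM in DMSO replicates 2 and 4 and to 57.2 and 7.50 CPM in replicates 1 and 3, against 1.18 to 7.49 CPM with CHIR99021. Without DMSO replicates 2 and 4 every call on the 9 tested genes was kept. The part of these other cells in the values above was not tested.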

How the data were processed

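RNA-seq of 8 embryonic kidney cultures (4 DMSO, 4 CHIR99021) was analysed. The authors aligned reads to GRCm38 with HISAT2 2.0.5 after bcl2fastq, per the labels, and counted reads per gene with featureCounts, per the study's methods. The deposited counts are raw read counts. The authors also deposited FPKM, scaled by gene length and depth. Whether counting used strand is not stated in the sources at hand. The table's other columns hold the authors' own comparison (mean level, fold change, p-values and calls) and were not used.

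Genes were kept by filterByExpr (minimum count 10, minimum total 15), leaving 16723 of 30890. Groups were compared in R 4.3.3 with edgeR 4.0.16 (TMM scaling, glmQLFit with robust = TRUE, glmQLFTest) without a block, with Benjamini-Hochberg adjustment of p over the 16723 genes. The edgeR step was tested on simulated counts, with the same spread for every gene, changes placed in well-counted genes only and no outlying sample. The ratios, correlations and other fits were not tested in this way. SEs were derived from the test statistic. CPM were taken from TMM-scaled library totals. Ratios to *Csf1r* were compared by exact permutation over the 70 ways of dividing them 4 to 4. Alternatives used limma 3.58.1, DESeq2 1.42.0, other scalings, FPKM on a log2 scale with pseudocounts of 0.1 and 1, and omission of samples. The 10 genes and the lists were chosen with earlier results of these data known.

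By the study's methods both kidneys of an embryo were used, 1 per treatment, but the sources at hand do not say that equal replicate numbers mark an embryo. Deviations from the group means correlated at 0.111 to 0.346 between samples of the same number and at -0.180 to 0.0766 between others. Part of this gap is built in, since removing group means pushes the other values down when those of the same number are up. For number 3 the values were close, at 0.111 against up to 0.0766. The numbers were taken as pairs on this basis, which does not show that they mark an embryo. The main fit and the exact test of the ratios did not use the pairs. Within each pathway list, the 3 tested genes with the smallest p and those changed against most of the list were named, and within each marker list the 2 with the highest mean CPM. Others are said to be named after their values were seen.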

Additional observations from a re-analysis of the deposited data

Results flagged for a closer look

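In 22 groups of 4 samples (the 10 genes and the macrophage marker sum, in each treatment), the gap between the furthest sample and its nearest neighbour was compared with the range of the group. In 3 of them this share was above Dixon's 95% critical value, and chance alone marks about 1 in 20 such groups. *Spi1* stood at 2.62 CPM in DMSO replicate 4, below the other DMSO samples (8.56 to 9.26 CPM). *Laptm5* stood at 13.5 CPM in the same sample, below the others at 37.3 to 41.5 CPM. *Il34* stood at 2.14 CPM in CHIR99021 replicate 2, above the others at 1.38 to 1.51 CPM, and this rests on 32 counts against 21 to 24.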

How the results depend on the processing

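Every call on *Il34*, *Csf1r*, *Spi1*, *Adgre1*, *Ptprc*, *Laptm5* and *Mpeg1*, and the lack of one for *Csf1* (0.03 to 0.39, adjusted p 0.156 to 0.917), was kept under 18 alternatives, and 7 to 9 of the genes were lower and 0 higher. *Cd68* did not pass with no expression filter (-0.47, adjusted p = 0.100) or with limma on log2(count + 1) scaled between arrays (-0.41, adjusted p = 0.0941), and with 1 sample left out it ranged from -0.64 to -0.38. With the replicate block *Csf1r* stood at -3.43, *Il34* at -1.28, *Csf1* at 0.18 and *Cd68* at -0.46, and the block changed no call on the 9 tested genes. With limma on log2(FPKM + 1), where the pseudocount compresses low genes, *Csf1r* stood at -2.19, *Spi1* at -1.37 and *Ptprc* at -1.12. With limma on log2(FPKM + 0.1) the median of all genes moved to -0.13, with 5899 lower and 2437 higher genes against 4180 and 3958, and 8 of the pathway genes were higher instead of 14. The split was 6032 to 2520 with log2(FPKM + 1) and 4747 to 3366 with upper-quartile scaling. Relative to *Csf1r*, *Ptprc* turned to 0.31 on FPKM with a pseudocount of 0.1, *Mpeg1* to -0.015 without DMSO replicate 2 and *Adgre1* to -0.13 without CHIR99021 replicate 2. With 1 sample left out, this ratio ranged from -0.015 to 0.54 for *Mpeg1* and from -0.13 to 0.45 for *Adgre1*. Without DMSO replicates 2 and 4 *Hbb-bs* turned to 0.28 and *Hba-a1* to 0.0091. The cause of these changes was not tested. The exact test over 4 pairs cannot go below a p of 0.125. Depth limits *Aif1* (2 to 5 counts per CHIR99021 sample) and *Spi1* and *Ptprc* in CHIR99021 replicate 4 (5 and 6 counts).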
